A study of Mus musculus with 11 samples.

Results

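Between embryonic day 8.5 (E8.5) and E9.5 the newly closed neural tube of the mouse trunk gained transcripts of posterior Hox genes. It also gained transcripts of several genes that respond to fibroblast growth factor (FGF). Transcripts of Rarb and Aldh1a2 in the retinoic acid pathway and of the Wnt antagonist Sfrp5 fell. Those of the neuronal cytoskeleton genes Nefl, Nefm and Stmn3 fell as well, but not those of Tubb3 and Mapt. Of 27 tested genes of neurogenesis and first neurons 5 were lower and 4 higher, with a median difference of 0.16 log2 units. The comparison set 3 arrays of closed neural tube from E9.5 embryos against 2 arrays of closed neural tube from E8.5 embryos, 5 of the 11 arrays of the series. Each gene was represented by 1 probe set, the one of highest mean signal over the 11 arrays among probe sets assigned to a single gene symbol. Of 18193 such genes, 13341 had a mean of at least 4.30 log2 units, the 40th percentile among the non-control probe sets, and were tested.

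All embryos were C57BL/6 mice from timed matings, staged by somite number, and the labels name no genetic change or drug. Tissue was pooled by litter, and the whole study used 111 embryos. The neural tissue and the notochord attached to it were freed from their surroundings after 2.5% pancreatin and 0.5% trypsin on ice, for 5 minutes at E8.5 and 8 minutes at E9.5. The closed neural tube began about 1 somite's width rostral to the point where the neural folds were still open and reached forward to a somite that was the fifth or the sixth when counted back from the last. The other 6 arrays hold open neuroepithelium, the unfused plate caudal to that point, 3 from each stage. A further closed E8.5 sample was hybridized and removed by the authors for its quality. Because the piece was cut relative to the closure point, which moves caudally as the embryo grows, stage, position along the body axis and protease time cannot be told apart in this comparison. Wherever a transcript is lower, fewer cells of a type and less RNA per cell cannot be told apart either. The p-values measure the spread between these pooled samples, and the number of arrays limits the precision.

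Spinal cord cells acquire their position along the body axis through Hox genes, which lie in clusters on the chromosomes and are switched on in the order in which they lie, with the highest-numbered genes activated last and furthest caudally. FGF and Wnt signals from the caudal end keep progenitors undifferentiated, whereas retinoic acid made by the neighbouring somites promotes neural differentiation and shapes the early expression of Hox and patterning genes. Sonic hedgehog from the notochord and floor plate then patterns the closed tube from its ventral side.

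The tissue carried the signature of neural tube at both stages. The mean log2 signal of 6 neural markers (Sox1, Sox2, Sox3, Pax6, Nes and Cdh2) lay between 9.76 and 10.24 in the 5 closed arrays, above the 8.61 to 9.16 of the open arrays. Among markers of neighbouring tissues, 7 somite and presomitic mesoderm genes averaged 4.8 and 5.83 in the E8.5 arrays of replicates 1 and 2 and 4.61 to 4.66 at E9.5. E8.5 replicate 2 therefore stood above the other closed arrays in somite transcripts, with Meox1 at 8.11 against 6.30 in replicate 1. Blood markers averaged 6.25 and 6.43 at E8.5 and 7.07 to 7.90 at E9.5. The embryonic globin Hbb-y read 8.88 and 8.43 against 11.66, 12.13 and 10.61, a difference that did not pass the test (adjusted p = 0.0876). Of 5 endothelial markers, Cdh5, Pecam1 and Tek were below the filter, while Kdr read 5.62 to 6.14 and Esam 5.29 to 5.49 in the closed arrays. The mean of the 5 was 4.59 and 4.52 at E8.5 against 4.45 to 4.59 at E9.5. The notochord markers Foxa2, Shh and Chrd averaged 7.93 and 8.17 at E8.5 and 8.30 to 8.52 at E9.5. Surface ectoderm markers averaged 6.03 and 5.91 against 5.81 to 5.85, and neural crest markers 6.86 and 7.47 against 7.24 to 7.44. The part of somite, blood, endothelial and notochord transcripts in the stage differences was not tested. A gauge of RNA integrity, the excess of 3' over 5' signal in control probe sets for Gapdh and Actb, was 1.82 and 1.18 log2 units at E8.5 against 1.72, 1.44 and 1.2 at E9.5, so the stages overlapped. The E8.5 arrays also differed more between themselves than the E9.5 arrays did. At least 1 log2 unit separated them for 282 genes, against 118 genes whose E9.5 arrays spanned as much. Across genes E8.5 replicate 2 correlated slightly better with E9.5 replicate 3 (r = 0.989) than with E8.5 replicate 1 (r = 0.984).

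In limma's moderated test with Benjamini-Hochberg adjustment over all genes, 323 genes passed an adjusted p of 0.05, which is 2.42% of those tested. Of these, 128 were higher at E9.5 (0.959%) and 195 were lower (1.46%). The median difference over all tested genes was -0.03 log2 units, so the 2 directions were read against a centre near 0. All 323 genes had closed arrays that did not overlap between the stages, a property shared by 2823 genes (21.2%) whether or not they passed, 1049 higher (7.86%) and 1774 lower (13.3%). The difference reached 1 log2 unit, a doubling or halving of signal, in 161 of the 323 genes, 61 higher and 100 lower. Left without E8.5 replicate 1 the count was 239, and without E8.5 replicate 2 it was 210. Without E9.5 replicate 2 it fell to 174, 76 higher and 98 lower. The higher genes numbered 76 without E8.5 replicate 1 and 83 without E9.5 replicate 1, and the lower genes 114 without E8.5 replicate 2 and 124 without E9.5 replicate 3.

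Hox genes held the largest increases. Hoxc10, a gene of the lumbar cord, read 4.02 and 3.25 at E8.5 against 8.94, 10.86 and 9.78 at E9.5. Both E8.5 values lay below the filter, and every E9.5 value lay more than 4 log2 units above them. The measured difference was 6.23 ± 0.42 log2 units (SE; adjusted p = 1.39e-05). Since an exact fold against a signal below the filter has no meaning, the E9.5 mean was set against the filter level, which gave an at least 47.1-fold higher signal. Hoxd9 rose from 5.59 and 4.69 to 8.76, 9.93 and 9.03, a difference of 4.10 ± 0.36 (adjusted p = 7.13e-05). Hoxd8, its neighbour in the cluster, rose from 5.03 and 5.21 to 8.55, 9.16 and 8.57, by 3.64 ± 0.23 (adjusted p = 1.06e-05), and a further probe set of the gene gave 3.84. Hoxa10 rose from 3.95 and 3.77 to 6.49, 8.13 and 7.38, a measured difference of 3.47 ± 0.36 (adjusted p = 0.00025). Its E8.5 values too lay below the filter, and against the filter level its signal was at least 8.20-fold higher. Over the alternatives tried its measured difference ran from 1.93 to 3.89. Hoxc10 and Hoxa10 were tested only because their other arrays raised the mean. In each of these 4 genes the stages were separated by more than 2 log2 units at their closest arrays, and E9.5 replicate 2 was the highest of the arrays.

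Hoxc9 and Hoxa9, which mark thoracic levels, rose from a clear starting signal. Hoxc9 read 6.87 and 6.97 at E8.5 against 9.10, 8.92 and 9.61 at E9.5, a difference of 2.28 ± 0.29 (adjusted p = 0.00115). Hoxa9 was already strong, at 10.77 and 10.24, and reached 12.62, 12.77 and 12.55, a 4.41-fold higher signal (adjusted p = 1.06e-05). Hoxc5 rose from 7.20 and 7.34 to 8.48, 8.69 and 8.47, by 1.28 ± 0.12 (adjusted p = 0.000146), with a difference of 0.67 to 1.35 over the alternatives tried. Smaller increases in Hoxc8, of 0.83 (adjusted p = 0.028), and in Hoxc4, of 0.64 (adjusted p = 0.0303), depended on single arrays. Hoxc8 missed the threshold without either E8.5 array or E9.5 replicate 1 or 3, with adjusted p up to 0.156. Hoxc4 missed it without E8.5 replicate 2 or E9.5 replicate 2 or 3, with adjusted p up to 0.249, and also with the replicate number as a random block within the stage (adjusted p = 0.0602), a pairing described with the open tissue. The antisense transcript Hoxd3os1, which lies beside Hoxd3, rose from 8.22 and 7.52 to 9.86, 10.51 and 9.74, whereas Hoxd3 itself gave -0.13 ± 0.22.

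The increases fell mostly in the middle and posterior paralogue groups. Of the tested genes of paralogue groups 1 to 3, 0 of 7 passed limma's test in either direction, 1 had an unadjusted p under 0.05, and their median difference was -0.01. For groups 4 and 5 it was 2 of 6 higher, with a median of 0.34. Groups 6 to 9 gave 5 of 9 higher and a median of 1.16. Groups 10 to 13 gave 2 of 7 higher and a median of 0.53. None of these 29 genes was lower by the test, and 9 were higher, or 31.0% beside 0.959% of all genes. Every tested gene of groups 10 to 13 lay below or close to the filter at E8.5, where a fall could not have shown. By cluster, 5 of 7 tested HoxC genes rose, 2 of 8 HoxA and 2 of 7 HoxD, and 0 of 7 HoxB genes passed limma's test. The HoxB differences ran from -0.34 for Hoxb5 to 0.34 for Hoxb4. Hoxb9, of the same paralogue group as Hoxa9, Hoxc9 and Hoxd9, read 6.10 and 6.18 at E8.5 against 6.50, 6.16 and 6.65 at E9.5, with overlapping stages. Within groups 10 to 13, Hoxd10 read 3.28 and 3.04 against 3.70, 6.53 and 4.85, an average difference of 1.87 that did not pass (adjusted p = 0.155) with the E9.5 arrays spread over more than 2 log2 units. Hoxa11 differed by 0.53, Hoxd11 by 0.17, Hoxc13 by 0.13 and Hoxd13 by 0.06, and none of these passed. All closed arrays of Hoxd11 (3.77 to 4.11) lay below the filter of 4.30, as did the E8.5 arrays of Hoxa11 (4.11 and 4.08) and Hoxd10. Hoxc13 (4.13 to 4.34) and Hoxd13 (4.13 to 4.39 at E8.5, 4.26 to 4.40 at E9.5) lay close to it. Small differences at this level do not show that expression was unchanged. Of the cofactors Meis and Pbx, 0 of 8 passed limma's test and 1 had an unadjusted p under 0.05.

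**Figure D1:**
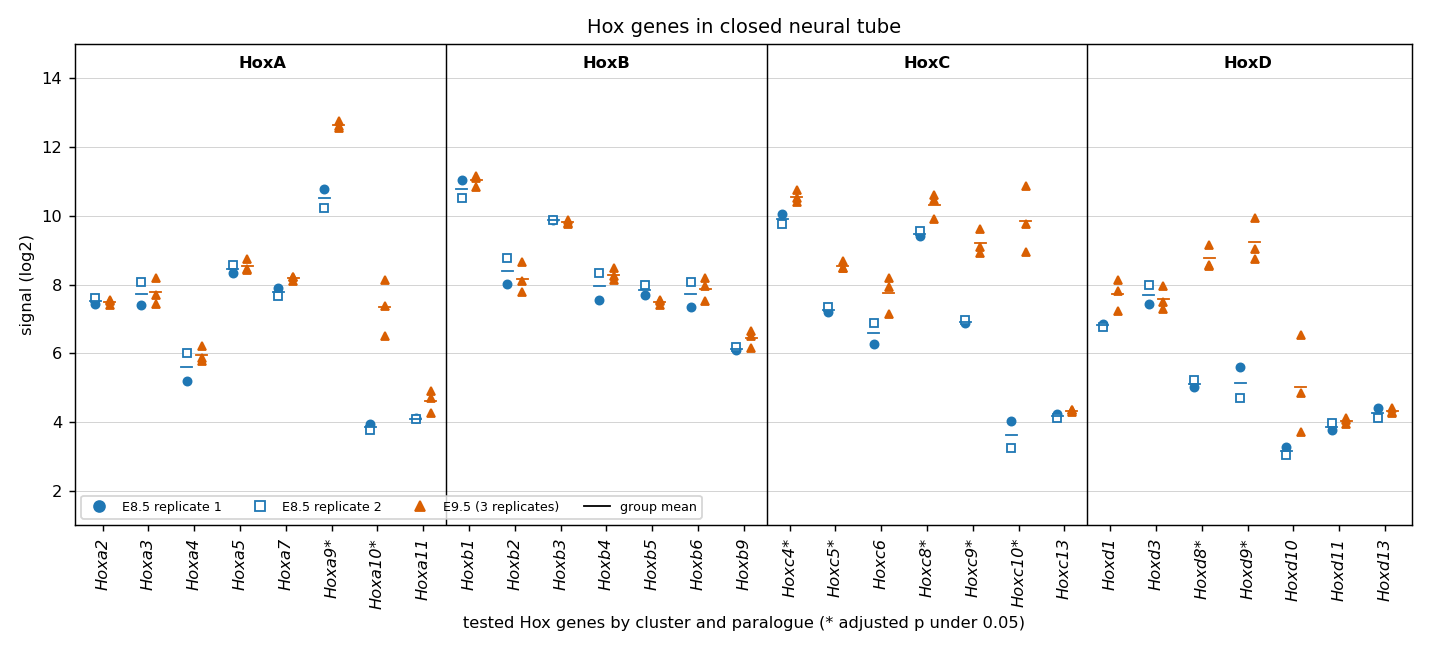
Log2 signal of every tested Hox gene in the 5 closed neural tube arrays, ordered by cluster and paralogue number. Circles and squares are the E8.5 replicates, triangles the 3 E9.5 replicates, dashes the group means, and asterisks the genes past an adjusted p of 0.05. The stages part and the threshold is passed in Hoxa9, Hoxa10, Hoxc4, Hoxc5, Hoxc8, Hoxc9, Hoxc10, Hoxd8 and Hoxd9. The arrays also part, without passing, upwards in Hoxa7, Hoxa11, Hoxc6, Hoxc13, Hoxd1 and Hoxd10 and downwards in Hoxb3 and Hoxb5. The HoxB panel holds no gene past the threshold.

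The caudal genes Cdx1, Cdx2 and Cdx4, homeobox regulators of Hox genes and of axial elongation, moved in opposite directions. Cdx1 read 7.46 and 8.57 at E8.5 against 5.21, 4.6 and 5.85 at E9.5, a 6.95-fold lower signal (adjusted p = 0.0112). Cdx2 read 7.47 and 8.13 and then 9.15, 8.71 and 9.21, a 2.34-fold higher signal (adjusted p = 0.0263). Cdx4 was 1.86-fold higher (adjusted p = 0.0191). These 3 calls rested on single arrays. Cdx1 missed the threshold without E8.5 replicate 2 (adjusted p = 0.117) or E9.5 replicate 2. Cdx2 missed it without E8.5 replicate 1 or E9.5 replicate 1 or 3, with adjusted p up to 0.197, and its further probe set differed by only 0.11. Cdx4 missed it without E8.5 replicate 1 or E9.5 replicate 3, with adjusted p up to 0.149. With Wnt5a, a Wnt ligand of elongating tissue, 3 of 25 tested caudal progenitor genes were higher and 1, Cdx1, was lower. Over all genes the shares were 0.959% and 1.46%. Wnt5a rose from 7.83 and 7.74 to 9.33, 9.54 and 9.06, by 1.53 ± 0.16 (adjusted p = 0.000248). Among genes of the change from trunk to tail formation, the nuclear receptor Nr6a1, which promotes trunk development, was at 12.20 and 11.87 at E8.5 and at 11.20, 10.68 and 11.31 at E9.5. That decrease of 0.97 passed the test (adjusted p = 0.037) but did not without any 1 of E8.5 replicates 1 and 2 and E9.5 replicates 1 and 2, with adjusted p up to 0.235. The RNA-binding protein Lin28a gave 0.03 ± 0.16 and the zinc finger factor Sall4 gave 0.19 ± 0.10, neither past the threshold.

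Several genes that respond to FGF signalling through the MAP kinase pathway were higher at E9.5. Etv5, a transcription factor induced by FGF, read 5.50 and 6.66 at E8.5 against 8.43, 8.46 and 8.84 at E9.5. The stages were separated by more than 1 log2 unit, and the difference of 2.50 ± 0.29 was a 5.65-fold higher signal (adjusted p = 0.000512). The other probe sets of Etv5 above the filter gave 0.52 and 1.06. Il17rd, a membrane inhibitor of FGF receptors, rose from 8.38 and 8.66 to 10.44, 10.60 and 10.42, by 1.97 ± 0.12 (adjusted p = 1.04e-05). Dusp6, the phosphatase that inactivates ERK, rose from 7.51 and 7.74 to 9.07, 9.67 and 9.11, by 1.66 ± 0.24 (adjusted p = 0.00249). For Spry2, a feedback inhibitor of receptor tyrosine kinases, the brightest probe set rose by 0.84 ± 0.14 (adjusted p = 0.00621), while its other probe set differed by -0.25, and the call was lost without E8.5 replicate 2 (adjusted p = 0.0741). Of 25 tested FGF and MAP kinase genes 6 were higher and 2 were lower, or 24.0% and 8.0% beside 0.959% and 1.46% of all genes, with a median difference of 0.20. The remaining pair of higher genes, Spry1 with 0.92 and the decoy receptor Fgfrl1 with 0.54, is named after their values were seen.

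Of the FGF family itself, 2 members were lower, and of its receptors Fgfr1, Fgfr2 and Fgfr3 did not pass the test. Fgf15, a ligand made within the neural tube, fell from 11.26 and 11.05 to 9.90, 9.43 and 9.58, a 2.86-fold lower signal (adjusted p = 0.0004). Fgf13, an intracellular member of the family that does not act as a secreted ligand, differed by -0.63 in a call that was lost without 1 of E8.5 replicates 1 and 2 or E9.5 replicates 2 and 3, with adjusted p up to 0.156. Fgf8, the main ligand of the caudal end, read 3.82 and 3.86 at E8.5 against 4.55, 4.58 and 4.02 at E9.5, close to the filter, and did not pass (adjusted p = 0.406). In the open neuroepithelium the same probe set averaged 8.21 and 7.97 at the stages. The receptors Fgfr1, Fgfr2 and Fgfr3 gave differences of -0.05, -0.56 and -0.22, with E9.5 arrays of Fgfr2 below those of E8.5.

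In the retinoic acid pathway, 4 of 18 tested genes were lower at E9.5 and 0 were higher, and 2 of the 4, Rarb and Aldh1a2, stayed past the threshold with the replicate number as a random block within the stage. Retinoic acid is made from retinal by Aldh1a2, is carried by Crabp proteins, acts through Rar receptors and is broken down by Cyp26 enzymes. Rarb is itself a target of the hormone, and its promoter carries a classic response element, a direct repeat of the receptor's binding half-site. The 250 bases before the start of Rarb and of Cyp26a1, the 2 tested genes of the pathway whose windows hold such a repeat, are shown with the repeat in capitals, since Rarb is among the lowered genes and such a repeat is the kind of site that the receptors are known to bind. Both come from RefSeq on build GRCm38.p6 and read 5' to 3' on the gene's strand, Rarb at chr14:16575477-16575726 on the minus strand and Cyp26a1 at chr19:37697558-37697807 on the plus strand.
Rarb: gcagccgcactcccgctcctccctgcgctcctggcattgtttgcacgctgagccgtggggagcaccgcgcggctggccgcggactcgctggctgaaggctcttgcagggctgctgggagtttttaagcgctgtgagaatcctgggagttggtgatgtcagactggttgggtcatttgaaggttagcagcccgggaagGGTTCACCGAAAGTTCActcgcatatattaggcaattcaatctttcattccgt
Cyp26a1: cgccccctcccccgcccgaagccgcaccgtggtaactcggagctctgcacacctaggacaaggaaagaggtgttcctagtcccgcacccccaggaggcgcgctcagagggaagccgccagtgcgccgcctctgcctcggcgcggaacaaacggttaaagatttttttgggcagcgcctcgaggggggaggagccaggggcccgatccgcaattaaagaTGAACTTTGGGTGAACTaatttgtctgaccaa

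The repeat was searched as GGTCA or GTTCA, followed after 6 bases by GGTCA or GTTCA, on both strands. It lay 53 to 37 bases before the start of Rarb on the gene's own strand and 32 to 16 bases before the start of Cyp26a1 on the opposite strand. Of 32851 windows reaching from 250 bases before to 50 bases after a gene's start, 81 held a match (0.247%). Of 15 tested retinoic acid genes with a window, 2 held one, and of 3 genes past the threshold with a window, 1 did. A match of letters is a description of the window and no evidence of binding.

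Rarb read 8.36 and 8.75 at E8.5 against 6.87, 6.51 and 6.88 at E9.5. All E9.5 arrays lay at least 1 log2 unit below the E8.5 arrays, and the difference was -1.80 ± 0.28, a 3.49-fold lower signal (adjusted p = 0.0047). Aldh1a2, the synthetic enzyme, fell from 10.96 and 11.21 to 9.84, 10.02 and 9.95, a 2.21-fold lower signal (adjusted p = 0.0004). Somites are the main site of Aldh1a2 expression in the trunk, and E8.5 replicate 2, the array with the most somite transcripts, also had the highest Aldh1a2 signal. The difference was -1.02 without that array (adjusted p = 0.00696), and the part of somite transcripts in it was not tested. The retinaldehyde reductase Dhrs3 differed by -0.74 and the carrier Crabp2 by -0.34, and both calls were lost without single closed arrays. Dhrs3 missed the threshold without E8.5 replicate 2 or E9.5 replicate 1 or 2, with adjusted p up to 0.254. Crabp2 missed it without any closed array but E9.5 replicate 2, with adjusted p up to 0.237. With the random block Dhrs3 and Crabp2 missed it as well (adjusted p = 0.063 and 0.0691).

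The 4 lower genes were 22.2% of the pathway beside 1.46% of all genes, and the median difference was -0.29. The count of lower genes was 2 without E8.5 replicate 2, 2 without E9.5 replicate 1 and 2 with the random block. Crabp1 had the same mean difference as Rarb, -1.80, but read 8.46 in E8.5 replicate 1 and 11.04 in replicate 2 against 8.02, 7.67 and 8.17 at E9.5, and did not pass (adjusted p = 0.272). Without E8.5 replicate 1 it did, with a difference of -3.09 (adjusted p = 0.0154). Cyp26a1 read 7.03 and 7.29 and then 6.63, 6.41 and 6.94, without overlap, and did not pass (adjusted p = 0.657). Cyp26b1 gave -0.02 ± 0.21.

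**Figure D2:**
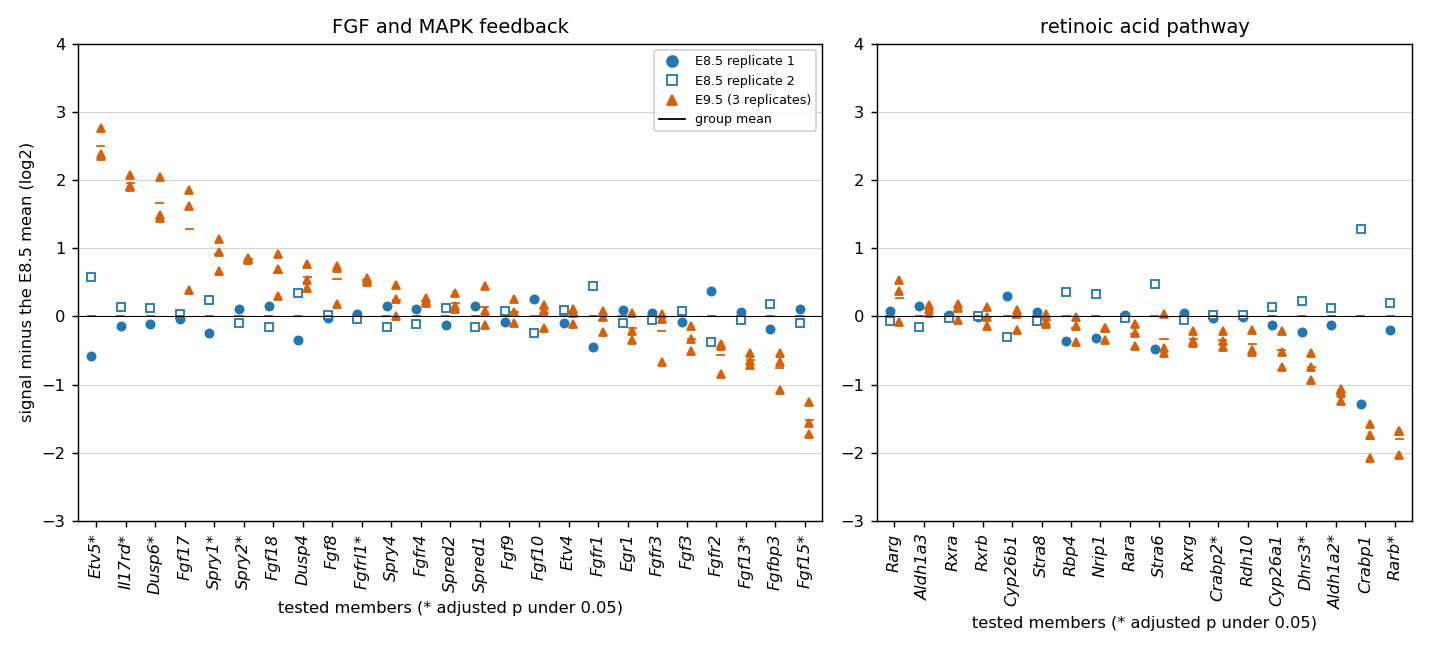
Log2 signal of each tested FGF and MAP kinase gene (left) and retinoic acid gene (right) in the 5 closed arrays, drawn relative to the gene's E8.5 mean. Etv5, Il17rd and Dusp6 lie more than 1 log2 unit above 0 in all 3 E9.5 arrays, and Fgf15, Rarb and Aldh1a2 more than 1 below. The wide gap between the E8.5 symbols of Crabp1 is the spread that kept it from passing.

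Of 40 tested Wnt genes 4 were lower, the secreted antagonists Sfrp5, Sfrp1 and Frzb and the acyltransferase Porcn, and 2 were higher, the ligands Wnt5a and Wnt4. Sfrp5 read 8.42 and 9.03 at E8.5 against 5.81, 5.79 and 5.88 at E9.5, a 7.47-fold lower signal (adjusted p = 4.31e-06). Porcn, the enzyme that attaches the lipid Wnt proteins need for secretion, fell from 8.18 and 8.92 to 7.03, 6.86 and 7.19, a 2.87-fold lower signal (adjusted p = 0.00185). The related antagonists Frzb and Sfrp1 differed by -1.15 and -1.0, in calls that depended on single arrays. Frzb missed the threshold without E8.5 replicate 2 or E9.5 replicate 1 or 2, and Sfrp1 without E8.5 replicate 2 or any E9.5 replicate, with adjusted p up to 0.243 and 0.292 over the alternatives tried. Beside Wnt5a, Wnt4 was higher by 0.92 (adjusted p = 0.0389), a call lost without either E8.5 array or E9.5 replicate 1 or 3 and with the random block (adjusted p = 0.0664). Other antagonists did not pass, with differences of 0.25 for Sfrp2, 0.61 for Notum, -0.63 for Dkk1, -0.56 for Dkk3 and -0.72 for Draxin, all named after their values were seen. The 2 higher and 4 lower of 40 stood beside 0.959% and 1.46% of all genes, and the median of the list was -0.11. Without E8.5 replicate 2 or E9.5 replicate 2 the count of lower genes was 2, and without either E8.5 array, E9.5 replicate 1, any open E8.5 array or open E9.5 replicate 1, or with the random block, the count of higher genes was 1. Axin2, a common read-out of the canonical pathway, overlapped between the stages at 10.06 and 10.41 against 10.10, 10.15 and 10.41, a difference of -0.02 ± 0.19.

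Among transcription factors of neural progenitors, 2 POU factors moved in opposite directions. Pou3f1 read 7.76 and 7.63 at E8.5 against 4.69, 4.6 and 4.96 at E9.5, a 7.69-fold lower signal (adjusted p = 1.99e-06). Pou3f3, of the same class, rose from 6.97 and 7.29 to 8.80, 8.87 and 8.36, a 2.93-fold higher signal (adjusted p = 0.00132). Pax6, a marker of intermediate progenitor domains of the tube, fell from 10.39 and 10.70 to 9.30, 9.10 and 9.42, by 1.27 ± 0.18 on the log2 scale (adjusted p = 0.00257). Its other probe sets above the filter ran from -1.41 to -0.05. Of 25 tested progenitor genes 1 was higher and 3 were lower, or 4.0% and 12.0% beside 0.959% and 1.46% of all genes. The last of the lower genes was Dach1 at -0.67, which missed the threshold without E8.5 replicate 2 or any E9.5 replicate. Without E8.5 replicate 2 the count of higher progenitor genes was 3. The pan-neural factors Sox1 and Sox2 differed by -0.25 ± 0.17 and 0.15 ± 0.10 and did not pass. Of 20 tested dorsoventral domain factors 0 were higher and 2 lower, Pax6 and the homeobox gene Irx2 (-0.82), and Irx2 missed the threshold without E8.5 replicate 2 or E9.5 replicate 1. The ventral progenitor factor Olig2 (-0.12 ± 0.31) and the dorsal factor Pax3 (-0.21 ± 0.17) overlapped between the stages.

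In the hedgehog pathway the ligand was higher and its targets did not pass the test. Shh, the ligand of notochord and floor plate, read 9.99 and 10.23 at E8.5 against 11.16, 10.92 and 11.17 at E9.5, a 1.97-fold higher signal (adjusted p = 0.00277). Its receptor and target Ptch1 differed by -0.20 ± 0.10 and the target Gli1 by -0.76 ± 0.38, and neither passed. Ptch1 and Gli1 are named after their values were seen. Of 23 tested hedgehog and floor plate genes 1 was higher and 0 were lower, beside 0.959% and 1.46% of all genes. In the notochord list, 2 of 14 genes were higher, Shh and the cartilage and notochord collagen Col2a1, with a median of 0.39. Col2a1 rose from 7.10 and 8.03 to 9.0, 8.99 and 9.65 (adjusted p = 0.0303), in a call lost without E8.5 replicate 1 or any E9.5 replicate. The floor plate and notochord factor Foxa2 gave -0.08 ± 0.24 and the notochord antagonist Chrd 0.24 ± 0.14, neither past the threshold. The dissection included attached notochord, and its part in the rise of Shh and Col2a1 was not tested. No one-symbol probe set was matched to the notochord genes T and Noto.

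Of 27 tested genes of neurogenesis and first neurons, 5 were lower, all of the neurofilament and stathmin families, and 4 were higher, or 18.5% and 14.8% beside 1.46% and 0.959% of all genes. Nefl, the light neurofilament, fell from 8.78 and 8.59 to 7.14, 6.61 and 7.0, a 3.41-fold lower signal (adjusted p = 0.000213). Stmn3, a microtubule-destabilizing protein of neurons, fell from 8.56 and 8.67 to 7.31, 6.79 and 7.07, a 2.94-fold lower signal (adjusted p = 0.000184). Nefm, the medium neurofilament, fell from 6.98 and 7.26 to 6.11, 5.53 and 5.84, a 2.45-fold lower signal (adjusted p = 0.00442). Stmn2 was 2.68-fold lower (adjusted p = 0.0162) but missed the threshold without either E8.5 array or E9.5 replicate 2. E9.5 replicate 2 was the lowest of the arrays in each of these 4 genes. The fifth lower gene, the neurofilament Ina at -1.12, is named after its value was seen. Other cytoskeletal genes of neurons, Tubb3 and the microtubule protein Mapt, gave 0.33 ± 0.30 and 0.04 and did not pass.

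On the other side stood 4 genes of smaller increase. Neurog3, a proneural factor, rose from 4.96 and 4.77 to 5.63, 5.78 and 5.51 (adjusted p = 0.00264), near the filter. The Notch ligand Dll3 (1.13), the stress and differentiation gene Gadd45g (0.88) and the homeobox gene Onecut2 (0.71) passed with adjusted p of 0.0439, 0.0439 and 0.0424, and each call rested on single arrays. Dll3 was lost without any 1 of the 5 closed arrays, Gadd45g without E8.5 replicate 1 or any E9.5 replicate, and Onecut2 without either E8.5 array or E9.5 replicate 1 or 2. The E8.5 values of Onecut2 lay below the filter. With the random block Gadd45g and Onecut2 missed the threshold (adjusted p = 0.0723 and 0.0854), which left 2 higher genes in the list. The list had 1 higher without E8.5 replicate 1, E9.5 replicate 1 or E9.5 replicate 2, 2 higher without E9.5 replicate 3, and 3 lower without E8.5 replicate 2 or E9.5 replicate 2. Of the open arrays, which share the error estimate, any but E9.5 replicate 3 left 1 or 2 higher when taken out. The main proneural factor of the trunk, Neurog2, was at 9.73 and 9.36 and then at 9.90, 9.64 and 9.46, a difference of 0.12 ± 0.17. The early neuronal gene Elavl3 differed by 0.15 ± 0.14 and the Notch target Hes5 by 0.02 ± 0.25, neither past the threshold. The median of the list was 0.16.

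**Figure D3:**
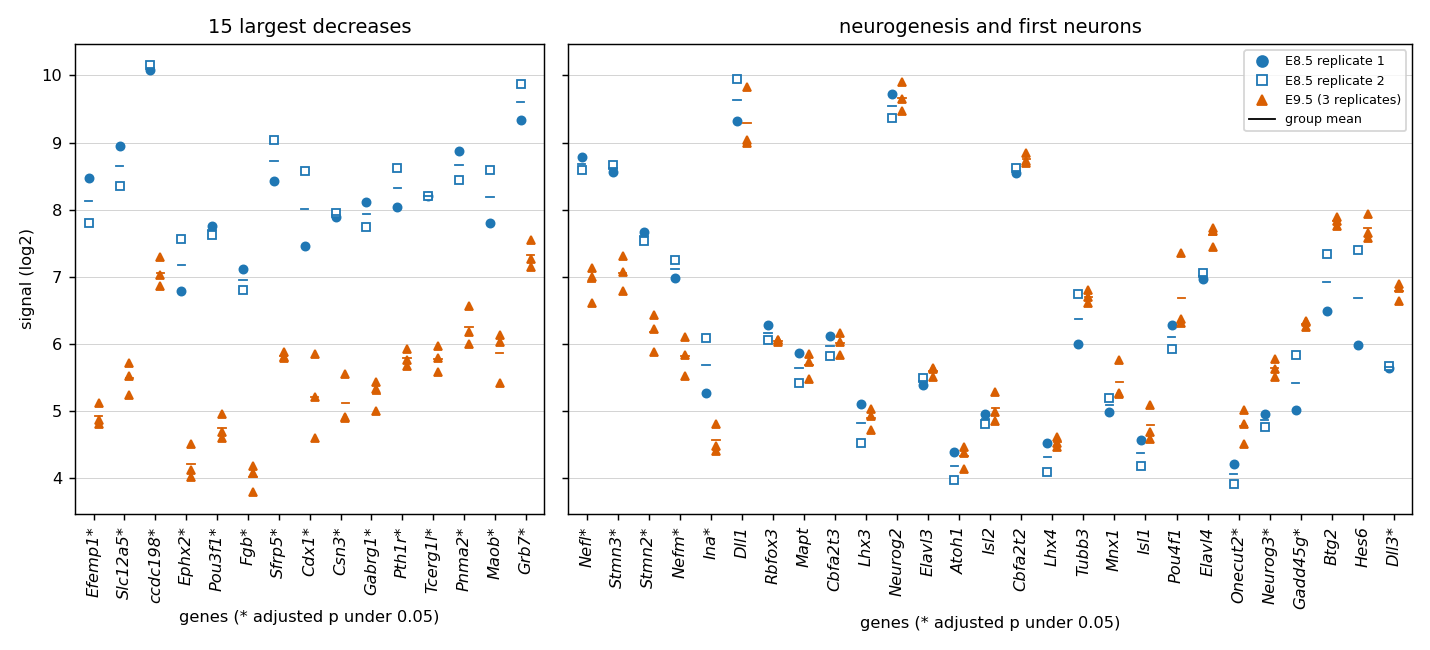
Log2 signal in the 5 closed arrays of the 15 largest decreases (left) and of all tested genes of neurogenesis and first neurons (right, ordered by difference). In the left panel the lowest E8.5 symbol lies above the highest E9.5 triangle for every gene. In the right panel Nefl, Stmn3, Stmn2, Nefm and Ina part downwards and Dll3, Gadd45g, Neurog3 and Onecut2 part upwards, all past an adjusted p of 0.05. With genes that did not pass, 12 of the 27 part upwards and 5 downwards, beside 7.86% and 13.3% of all genes.

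The largest decreases were a mixed group with levels well above the filter at E8.5. Efemp1, an extracellular matrix glycoprotein, read 8.48 and 7.80 at E8.5 against 5.13, 4.81 and 4.87 at E9.5, a 9.20-fold lower signal (adjusted p = 2.13e-05). Slc12a5, the neuronal chloride exporter KCC2, read 8.94 and 8.35 and then 5.52, 5.71 and 5.24, an 8.90-fold lower signal (adjusted p = 1.77e-05). ccdc198, a coiled-coil gene, fell from 10.08 and 10.15 to 7.29, 7.03 and 6.86 (adjusted p = 0.000442). In all 3 genes the E9.5 arrays lay at least 2 log2 units below the E8.5 arrays.

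Beside Pou3f1, Sfrp5 and Cdx1, the others of the 15 covered several functions. Ephx2, an epoxide hydrolase, and Maob, a monoamine oxidase, differed by -2.96 and -2.33. The secreted products Fgb (fibrinogen beta) and Csn3 (kappa casein) differed by -2.94 and -2.79. All 3 E9.5 values of Fgb, 4.18, 4.09 and 3.79, lay below the filter, so that its signal was at least 6.32-fold lower when set against the filter level. The receptors Gabrg1, a GABA receptor subunit, and Pth1r, of parathyroid hormone, differed by -2.68 and -2.54. Tcerg1l, Pnma2 and the adaptor Grb7 differed by -2.42, -2.41 and -2.29. Adjusted p for these 9 genes ran from 2.39e-06 for Fgb to 0.00145 for Maob, and each kept its call with any 1 array left out. All 15 had 2 E8.5 arrays above all 3 E9.5 arrays, as the rule that picked them required.

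The largest increases outside the Hox clusters, beside Etv5 and Il17rd, were in genes of several kinds. Selenop, a selenium carrier, read 6.87 and 7.92 at E8.5 against 9.92, 10.03 and 9.87 at E9.5, a 5.85-fold higher signal (adjusted p = 0.000146). Sparcl1, a matricellular protein, rose from 6.53 and 6.92 to 8.97, 9.44 and 9.01, a 5.35-fold higher signal (adjusted p = 1.77e-05). Timp4, an inhibitor of matrix metalloproteinases, rose from 4.82 and 4.81 to 7.20, 6.89 and 6.84 (adjusted p = 3.34e-05), but its other probe set gave 0.09. Antxr1, a collagen-binding receptor, was higher by 2.12, with 0.04 from its other probe set. Steap2, a metalloreductase, and Chst15, a sulfotransferase of chondroitin sulfate, were both higher by 1.97. Over the alternatives tried the Steap2 difference ran from 0.67 to 2.01, and Chst15 missed the threshold without E8.5 replicate 2 or E9.5 replicate 2. In the wider extracellular matrix list, 1 of 37 tested genes was higher (Col2a1) and 3 were lower, or 2.70% and 8.11% beside 0.959% and 1.46% of all genes. Beside Efemp1 the lower genes were the basement membrane collagens Col4a1, from 10.20 and 10.27 to 9.44, 9.29 and 9.31 (adjusted p = 0.00224), and Col18a1, from 12.06 and 12.09 to 11.41, 11.22 and 11.44 (adjusted p = 0.00131). Without E8.5 replicate 1 the count of lower matrix genes was 5.

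Of growth control genes with imprinted expression, 2 were higher. Cdkn1c, the cyclin-dependent kinase inhibitor p57, read 8.83 and 9.39 at E8.5 against 10.79, 10.88 and 11.05 at E9.5, a 3.48-fold higher signal (adjusted p = 0.0012). Plagl1, a zinc finger regulator of imprinted genes, rose from 12.27 and 12.07 to 12.98, 13.21 and 13 (adjusted p = 0.00025). They were 2 of 22 tested imprinted genes, or 9.09% beside 0.959% of all genes, with 0 lower and a median of 0.04. Igf2 differed by 0.88 ± 0.34 without passing (adjusted p = 0.331). Cdkn1c was also the 1 called gene of 20 in the list of G1 cyclins and cell cycle exit, and Ccnd1 (0.58 ± 0.16, adjusted p = 0.0986) and Ccnd2 (-0.22 ± 0.09, adjusted p = 0.323) did not pass. Of the p53 list 1 of 21 was higher, the pro-apoptotic Pmaip1, from 7.92 and 8.07 to 9.29, 9.77 and 9.52 (adjusted p = 0.0002). The list of genes that respond to protease dissociation had 1 of 21 higher, the cytokine inhibitor Socs3 by 1.58 (adjusted p = 0.00491), whose other probe sets ran from -0.06 to 1.03. That call was lost without E8.5 replicate 1 (adjusted p = 0.053). The digestion was longer at E9.5, and its part was not tested.

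The open arrays shared in the estimate of the error, and some of the closest calls also missed the threshold when an open array was left out. Cdx2, Hoxc8 and Hoxc4 did so without open E8.5 replicate 3, and Hoxc4 also without open E9.5 replicate 1. Col2a1 and Cldn9 did so without either of these 2 arrays. Dhrs3 and Dach1 missed it without open E8.5 replicate 1 or 3, and Dach1 also without open E9.5 replicate 1. Nr6a1, Sfrp1, Wnt4, Crabp2, Gadd45g and Celsr3 missed it without any 1 of the 3 open E8.5 arrays or without open E9.5 replicate 1. Dll3 missed it without open E8.5 replicate 2 or 3 or open E9.5 replicate 1, and Onecut2 without open E8.5 replicate 1 or 3 or open E9.5 replicate 1 or 2. Crabp2 and Gadd45g were also lost without open E9.5 replicate 2. In these fits the adjusted p stayed at or below 0.0796, the value of Celsr3, and no direction changed.

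Several cellular programmes held 0 genes past limma's threshold in either direction, where 0.959% of all genes were higher and 1.46% lower. These were DNA replication (0 of 32, 1 with an unadjusted p under 0.05), mitosis (0 of 26, 3 unadjusted), oxidative phosphorylation (0 of 34, 1 unadjusted), ribosomal proteins (0 of 25, 0 unadjusted) and apical junction and actomyosin (0 of 27, 3 unadjusted). BMP signalling (0 of 23), neural crest (0 of 17) and glycolysis and hypoxia (0 of 29) had 9, 5 and 8 members with an unadjusted p under 0.05, against 10.2% of all genes. With the random block 1 BMP gene was higher. The list of planar cell polarity held 1 gene lower of 22, the cadherin Celsr3 (-0.72, adjusted p = 0.0437), lost without E8.5 replicate 2 or E9.5 replicate 2 or 3 and with the random block (adjusted p = 0.0564), while the core gene Vangl2 gave -0.13 ± 0.36. Axon guidance held 1 lower of 38, Sema3c, which fell from 8.32 and 8.29 to 7.15, 6.95 and 6.99 (adjusted p = 0.000252), and 2 were lower with the random block. The folate and one-carbon list held 1 lower of 24, the folate receptor Folr1, from 6.57 and 7.14 to 5.18, 5.78 and 5.63 (adjusted p = 0.00397). Cadherins and claudins held 1 higher of 13, Cldn9 by 1.00, a call lost without E8.5 replicate 1 or any E9.5 replicate. Cholesterol synthesis held 1 lower of 20, the sterol carrier Stard4 at -0.95, lost without E8.5 replicate 2 or E9.5 replicate 1 or 3.

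**Figure D4:**
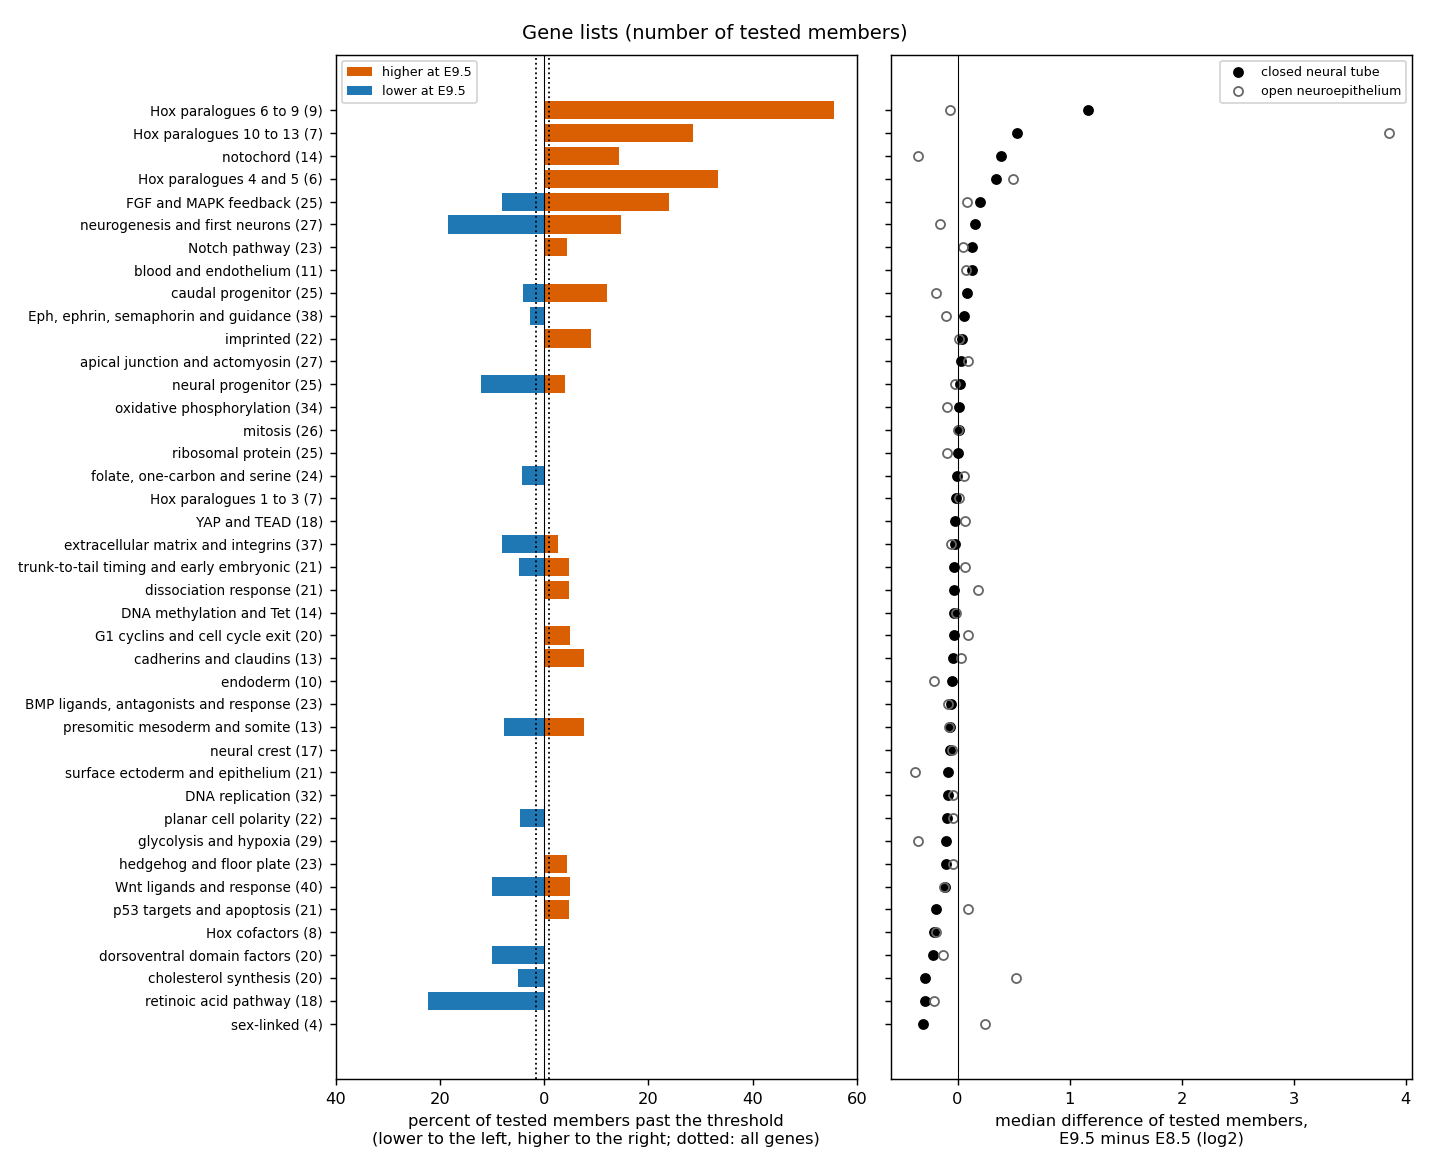
Left, percent of the tested members of each gene list past an adjusted p of 0.05, lower at E9.5 to the left and higher to the right, with dotted lines at the 1.46% and 0.959% of all genes. Right, median E9.5 minus E8.5 difference of the tested members (log2) in closed neural tube and in open neuroepithelium. Hox groups 6 to 9 have the largest share of higher genes (5 of 9), and the retinoic acid list the largest share of lower genes (4 of 18).

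The open neuroepithelium was sampled at the same stages and gave a measure of what was particular to closed tissue. There, 670 genes (5.02%) passed between the stages, 481 higher (3.61%) and 189 lower (1.42%). Of the genes, 121 passed in both tissues, 62 higher in both, 50 lower in both and 9 in opposite directions. Genes that passed in the same direction made up 34.7% of the closed calls and 16.7% of the open calls. A test of the difference between the stage changes (closed minus open, limma with Benjamini-Hochberg adjustment) passed for 167 genes (1.25%), 40 with a higher (0.3%) and 127 with a lower value (0.952%) in closed tissue. Same-numbered closed and open samples within a stage deviated together (correlations of 0.308 to 0.697), and with that pairing as a random block the count was 492. Some arrays of unlike number did so as well. Open E9.5 replicate 2 and closed E9.5 replicate 1 gave 0.317, and open E9.5 replicate 3 and closed E8.5 replicate 2, of unlike stage, gave 0.756. Others were negative, down to -0.756 for closed E8.5 replicate 1 and open E9.5 replicate 3. The deviations of the 2 closed E8.5 arrays mirror each other, so this value only repeats the 0.756 with the sign reversed. The labels name no pairing, and whether the numbers stand for one was not tested. In fits without the block that left out 1 of the open E8.5 arrays, open E9.5 replicate 1 or 2, or closed E9.5 replicate 2 or 3, the count lay between 84 and 106. Of the 323 genes of the closed comparison, 76 also passed this test.

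Of 29 tested Hox genes 8 had a more positive stage change in closed tissue and 3 a more negative one, Hoxa5, Hoxd10 and Hoxa11. These were 27.6% and 10.3% beside 0.3% and 0.952% of all genes. Hoxa9 gave -0.07 ± 0.12 in open tissue, where it averaged 13.14 and 13.07, and its rise of 2.14 in closed tissue exceeded that by 2.21 ± 0.18 (adjusted p = 0.000183). Hoxc8 rose by 0.83 in closed and fell by 1.38 in open tissue, a difference between tissues of 2.21 ± 0.23 (adjusted p = 0.000941). Hoxa7 and Hoxb9 fell in open tissue by 1.24 and 1.31 and gave 0.40 and 0.30 in closed tissue, and both differed between tissues (adjusted p = 0.00313 and 0.00224). The 8 were Hoxc4, Hoxc5, Hoxa7, Hoxc8, Hoxd8, Hoxa9, Hoxb9 and Hoxc9. Hoxa5 gave 0.08 in closed tissue and rose by 1.01 in open tissue, a difference of -0.93 ± 0.18 (adjusted p = 0.0296). Hoxa11 read 4.11 and 4.08 and then 4.26, 4.70 and 4.91 in the closed tube, while the open tissue rose from a mean of 4.18 to 8.03, so the stage changes differed by -3.32 ± 0.34 (adjusted p = 0.000844). Hoxd10 gave a difference of -4.16 ± 0.76 (adjusted p = 0.0239). Both genes lay below the filter in closed E8.5 tissue and in the open E8.5 mean, so these sizes are measured against signal under the filter. Hoxa10 (-1.71) did not pass (adjusted p = 0.169), but did with the random block (adjusted p = 0.0239). Hoxc10 rose in both tissues, by 6.23 and 6.60, and the changes differed by -0.37 ± 0.56, an estimate that leaves room for a difference in either direction.

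Other genes had a stage change in closed tissue that differed from that in open tissue. Il17rd and Etv5 rose in closed tissue and gave 0.28 ± 0.11 and 0.29 ± 0.26 in open tissue, where they averaged 11.62 and 9.65 already at E8.5, and both differed between tissues (adjusted p = 0.00063 and 0.0175). For Dusp6 the changes were 1.66 and 0.45, and their difference of 1.21 ± 0.32 missed the threshold (adjusted p = 0.128) but passed with the random block (adjusted p = 0.0164). Shh rose by 0.98 in closed and fell by 0.65 in open tissue (adjusted p of the difference 0.00168). Nr6a1 fell by 0.97 in closed and by 3.51 in open tissue, where it went from a mean of 12.25 to 8.74 (adjusted p of the difference 0.00138). Pou3f1, Sfrp5, Slc12a5, Fgb and Pth1r fell in closed tissue, with differences from -3.15 to -2.54, and gave -0.78, -0.22, 0.16, 0.01 and 0.34 in open tissue, with adjusted p of the difference from 0.000116 to 0.000439. Their open E8.5 means were low, at 4.94, 5.77, 5.59, 4.05 and 5.11, against 7.69, 8.73, 8.65, 6.96 and 8.33 in closed E8.5 tissue. Fgb lay below the filter in the open means of both stages and Pou3f1 in that of E9.5, so these 2 open changes are measured against signal under the filter. The open fall of Pou3f1 passed the threshold (adjusted p = 0.00314), and the open changes of Sfrp5, Slc12a5, Fgb and Pth1r did not. The fall of Rarb and of Aldh1a2, in contrast, had no tissue difference past the test (adjusted p = 0.308 and 0.146). Their open changes were -0.71 and -0.52, and the tissue difference of Aldh1a2 passed with the random block (adjusted p = 0.0239). Every open E9.5 value of Rarb (3.95, 3.94 and 3.54) lay below the filter, as did open E8.5 replicate 3 (3.84). The open change of Rarb did not pass (adjusted p = 0.159). It is measured against signal under the filter, so whether the fall of Rarb was shared by open tissue cannot be judged. The falls of Nefl, Stmn2 and Fgf15 were past the threshold in both tissues, at -1.77, -1.42 and -1.52 in closed and -1.57, -1.98 and -1.28 in open tissue.

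**Figure D5:**
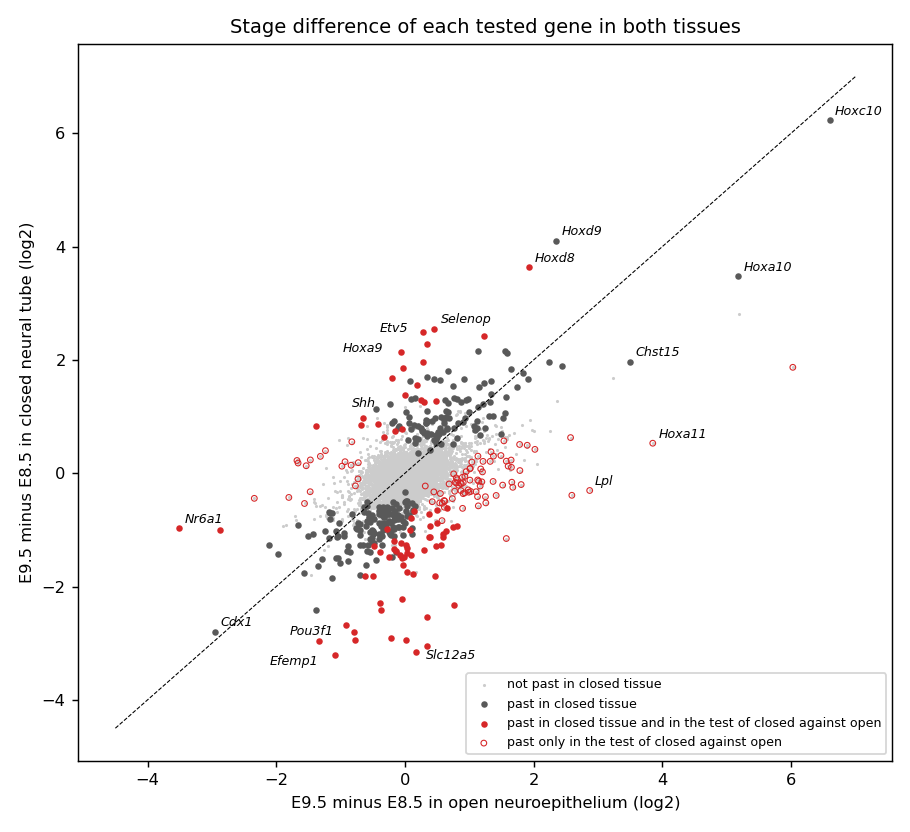
E9.5 minus E8.5 difference (log2) of each tested gene in open neuroepithelium (horizontal) and closed neural tube (vertical), with the dashed line of equal change. Dark points passed in closed tissue, red points passed there and in the test of closed against open, and open red circles passed only the latter. Hoxc10 lies near the line, Hoxa9, Etv5 and Selenop lie above it near 0 on the horizontal axis, and Pou3f1, Slc12a5 and Efemp1 lie below it.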

How the data were processed

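RNA of 11 tissue pools was amplified in 2 cycles from 50 ng and hybridized to Affymetrix mouse arrays, per the labels. The authors deposited log2 values; the submitters' processing notes name MAS5, but its version and role, and whether the log2 values were normalized between arrays, are not given in the sources used here. Of 45101 probe sets, 34945 carried 1 gene symbol, 932 several and 9160 none, and 64 were controls. Symbols were updated through RefSeq for 34741 and kept for 204. limma 3.58.1 in R 4.3.3 fitted 4 group means (closed and open, E8.5 and E9.5) over all 11 arrays, with 7 residual degrees of freedom, an intensity trend and Benjamini-Hochberg adjustment. The open arrays thus shaped the error of the closed comparison.

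The genes described, the 42 gene lists and the tests were chosen with earlier results of these data known. Genes are named by a rule: the 15 largest increases and 15 largest decreases among called genes with separated arrays and a mean of at least 5.64, up to 4 members per list and direction, Hox genes, an anchor list and the 10 leading genes in each direction of the closed against open test; others are said to be named after their values were seen. Tested on simulated data for the closed comparison over 13341 genes, the procedure recovered 18%, 84%, 100% and 100% of changes of 0.5, 1, 2 and 3 log2 units. The simulated noise was independent between arrays and no change was set in open tissue. In the data 61.7% of the residual variance lay in its main component, so these shares hold only for the simulated noise. The deviations of same-numbered closed arrays of the 2 stages correlated at 0.25 and -0.48, so the random block by number was set within a stage only. Whether the numbers stand for a pairing of samples was not tested. Alternatives covered normalization, filter, probe set choice, variance model, weights, blocks, covariates and each array left out.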

Additional observations from a re-analysis of the deposited data

Results flagged for a closer look

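The change between stages differed between closed and open tissue, by limma's test of the difference, for 167 genes. The values below are the stage difference in closed neural tube minus that in open neuroepithelium, in log2 units. Among Hox genes the difference was positive for Hoxc8 (2.21), Hoxa9 (2.21), Hoxc9 (1.94), Hoxd8 (1.71), Hoxa7 (1.63), Hoxb9 (1.61), Hoxc4 (0.97) and Hoxc5 (0.80). It was negative for Hoxd10 (-4.16), Hoxa11 (-3.32) and Hoxa5 (-0.93).

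Regulators and signalling genes with a positive value were Nr6a1 (2.53), Etv5 (2.21), Wnt8a (1.70), Il17rd (1.69), Shh (1.63), Pou3f3 (1.36), Gadd45g (1.30), Neurog2 (1.10), Neurog3 (0.83) and Ccnd2 (0.55). Those with a negative value were Sfrp5 (-2.68), Pou3f1 (-2.16), Sox1 (-1.92), Grb7 (-1.89), Sema3c (-1.28) and Mycn (-0.54).

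Of secreted, membrane and metabolic genes, Selenop (2.10), Ndnf (1.67), Pof1b (1.54) and Sparcl1 (1.19) had positive values. Negative values were those of ccdc198 (-3.40), Slc12a5 (-3.32), Lpl (-3.18), Maob (-3.10), Scara5 (-2.98), Fgb (-2.95), Pth1r (-2.88), Efemp1 (-2.12), Tcerg1l (-2.05), Csn3 (-2.0), Gabrg1 (-1.76), Stard4 (-1.69), Ankrd44 (-1.67), Ephx2 (-1.62), Dleu7 (-1.55), Folr1 (-1.36) and Hmgcs1 (-0.93).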

How the results depend on the processing

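Of the 78 genes named by the rule and past the threshold in closed tissue, all 78 kept their direction under every alternative tried. Of these, 47 kept their call under every alternative but the size limit. Called genes named after their values were seen, such as Spry1, Ina, Gap43 and Igf1r, are outside this count. The 323 calls (128 higher, 195 lower) became 215 (84 higher) with array weights, 150 (64 and 86) with the 5 closed arrays alone, and 161 (61 and 100) with a size limit of 1 log2 unit. With the 3'-to-5' signal as a covariate they were 730 (296 and 434), and 297 for closed against open. With single arrays left out the calls ran from 174 to 375, the higher genes from 76 to 160 and the lower genes from 98 to 215, and the genes of closed against open from 84 to 239. With the replicate number as a fixed block the calls were 278 and 129. Added after the data were seen, a random block within the stage gave 309 and 492, and a covariate made from the residuals' leading component gave 1005 (382 and 623) and 862. The cause of these differences was not tested. With 2 E8.5 arrays, changes of 0.5 log2 units were mostly not recovered in the simulated data.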

Other observations

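Further genes that differed between the stages of the closed tube are given here, picked after their values were seen. Some genes of the synapse and of secretory vesicles were lower at E9.5, as were 1.46% of all genes. No list of such genes was counted, so their share and the number that went the other way are not known. The vesicle-release factors Cadps (-1.22), Rims2 (-1.07) and Syt7 (-1.03), the granule protein Scg3 (-1.04), the GABA receptor subunit Gabra4 (-1.03) and the growth cone protein Gap43 (-1.49) all passed limma's test with Benjamini-Hochberg adjustment, with adjusted p from 0.00257 for Scg3 to 0.0399 for Gap43. Gap43 read 7.69 and 8.28 at E8.5 against 6.69, 6.10 and 6.71 at E9.5. The microtubule protein Map2 fell by 0.93 in closed tissue and rose by 0.81 in open tissue (adjusted p of the difference 0.00408).

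In the insulin-like growth factor axis, the binding protein Igfbp5 rose from 7.69 and 8.44 to 9.87, 10.02 and 9.86, a 3.62-fold higher signal (adjusted p = 0.000592), and the receptor Igf1r rose by 0.52 (adjusted p = 0.0395). Igfbp5 gave -0.03 in open tissue, and the changes differed (adjusted p = 0.00793). The Wnt carrier Wls fell from 10.5 and 10.24 to 9.36, 9.48 and 9.65 (adjusted p = 0.0027). Met, the receptor of hepatocyte growth factor, fell from 8.88 and 8.33 to 7.07, 6.72 and 6.57, a 3.52-fold lower signal (adjusted p = 0.000254). The cytoskeletal gene Dmd fell from 7.38 and 7.35 to 6.05, 5.24 and 5.40 (adjusted p = 0.000288) and gave 0.46 in open tissue (adjusted p of the difference 0.00138).

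Cholesterol synthesis genes had a median difference of -0.29 in the closed tube and of 0.53 in open tissue, and 8 of 20 had a lower stage change in closed tissue by the test of the difference, beside 0.952% of all genes. In the closed tube 10 of the 20 had E9.5 arrays that all lay below the E8.5 arrays, beside 13.3% of all genes, although Stard4 alone passed the adjusted test. The transcription factor Pou5f1 read 5.08 and 5.86 at E8.5 against 3.99, 4.54 and 4.01 at E9.5, a difference that did not pass in closed tissue (adjusted p = 0.0707).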
